A study of Solanum tuberosum with 12 samples.

Results

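The microRNAs miR858 and miR828 were followed in tubers of 4 potato (Solanum tuberosum) cultivars, Black kingkong and Red beauty together with Longshu No.7 and LK99. Their members were all rows of the deposited miRNA table whose name holds miR858 or miR828 as the full family number. This rule found 5 of 7827 entries: miR858-x, miR858-y, miR858-z, miR828-x and miR828-y. Each cultivar had 3 small RNA libraries, 12 in all, from tubers aged 150 days. The labels state that the cultivars were grown side by side with the same irrigation, light and temperature, and they name no treatment or transgene. They code the cultivars as B, R, Y and W, in the order above, and name neither flesh nor skin colour. Whether replicate libraries were made from different plants is not stated, so p-values cover only library-to-library spread, part or all of which may be technical. The table holds mature miRNAs only, so the tuber origin could not be checked against marker genes.

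Plant miRNAs guide Argonaute proteins to nearly complementary messenger RNAs, which are then cut or kept from translation. In other plants both families act on R2R3-MYB transcription factors, a large family whose members switch on genes of phenylpropanoid, flavonol and anthocyanin synthesis. In Arabidopsis miR828 also cuts the TAS4 transcript, which gives rise to small interfering RNAs against further MYB messages. No messenger RNA values were analysed here.

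The sequences are shown because the 3 miR858 entries turned out to be end variants of 1 sequence. They are written as deposited, with T for U, and the capitals mark bases 2 to 8, counted from the 5′ end (the seed).
miR858-x: tCTCATTGtctgttcgacct
miR858-y: cTCATTGTctgttcgaccttg
miR858-z: gTCTCATTgtctgttcgacct
miR828-x: tCTTGCTCaaatgagtattcca
miR828-y: tCATTCGAgcaaacaatatt

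The miR858 entries shared an uninterrupted core of 19 nt, ctcattgtctgttcgacct, which no other entry of the table contained. Relative to miR858-x, which is 20 nt long, miR858-y began 1 base further towards the 3′ end and ran 2 bases longer there. The entry miR858-z began 1 base earlier and ended at the same base. A different start moves the seed, so the 3 entries had 3 different seeds. The entry miR828-x is 22 nt long, and its longest run in common with any miR858 entry was 4 nt. No entry outside the family was related to a member, defined as an ungapped overlap of at least 17 bases with at most 3 mismatches, and no member sequence was listed a second time. Whether the authors' counting could assign 1 read to several of these overlapping miR858 entries is not stated by the labels or file headers.

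The libraries held 5605168 to 7354483 counts, and levels are given as CPM (per-million counts, after TMM scaling of library size). The most abundant entry, miR166-y, whose family targets HD-ZIP III transcription factors in other plants, took 86.1% to 92.0% of the counts of a library. Pearson's r of log2 CPM over the 1349 tested entries ranged over 0.861 to 0.974 within a cultivar and over 0.677 to 0.833 for libraries of different cultivars. Replicate 3 of Longshu No.7 stood apart from the other libraries of its cultivar, with r of 0.861 and 0.865. For pairs with Longshu No.7, the fold changes of miR858-x and miR858-y are given with and without it. Of the 5 members 4 passed the filter on low counts. Of these, miR858-z reached the needed counts only in Black kingkong, with 23, 25 and 11 counts against 6, 7 and 7 in LK99. Its calls as higher in Black kingkong, and the numbers of members passing that include it, are therefore not independent of the filter. The fifth, miR828-y, had 1 count each in Black kingkong, Longshu No.7 and LK99 and 0 in Red beauty, and it was not tested.

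Mature miR858 was abundant in tubers of Black kingkong and LK99 and scarce in those of Red beauty and Longshu No.7. Black kingkong and LK99 held 12367 and 7531 counts of the 3 entries together, while Red beauty and Longshu No.7 each held 66. As a summed level this was 624 ± 102 CPM for Black kingkong tubers, 4.01 ± 4.05 for Red beauty, 4.11 ± 3.77 for Longshu No.7 and 328 ± 51.2 for LK99 (SD, n = 3). Since whole tuber tissue was sequenced, fewer cells that carry a miRNA and less of it per cell cannot be told apart.

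**Figure D1:**
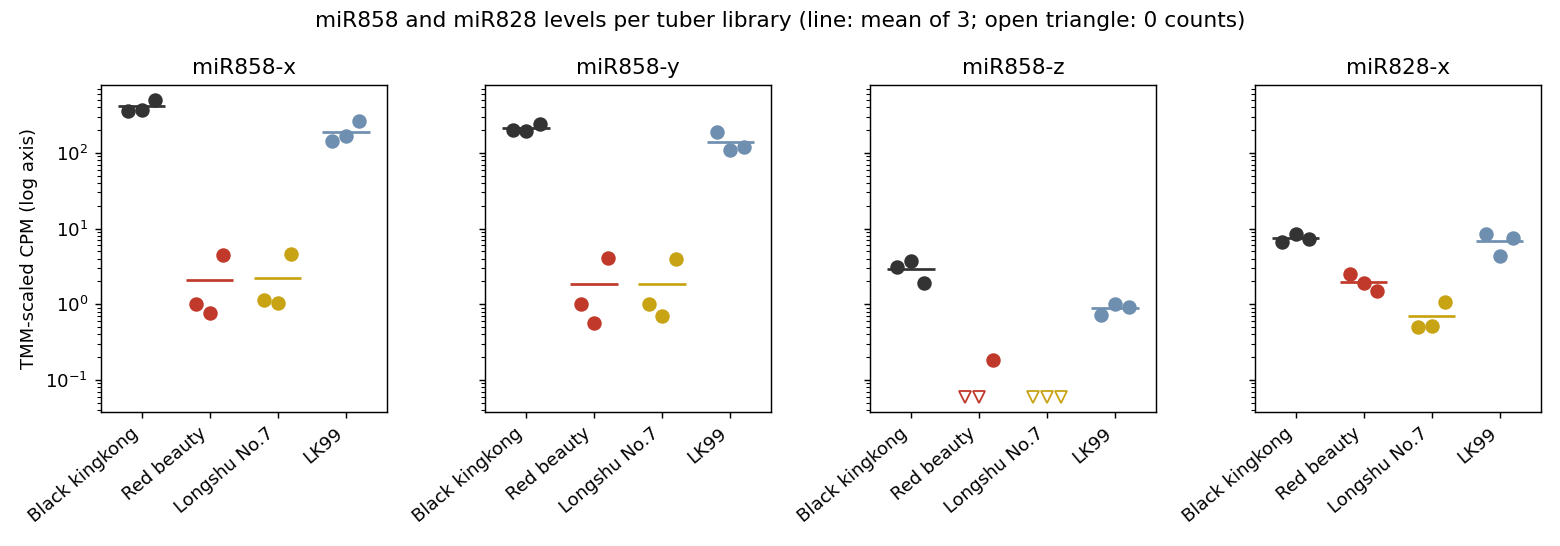
Level of each tested entry in each tuber library, in TMM-scaled CPM on a log axis; points are libraries, lines are means of 3 libraries (not drawn where a cultivar has 3 counts or fewer) and open triangles are libraries with 0 counts. For miR858-x the libraries of Black kingkong and LK99 lie between 141 and 501 CPM and those of Red beauty and Longshu No.7 between 0.763 and 4.55 CPM.

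The entry with the most counts was miR858-x. It stood at 361, 368 and 501 CPM in the Black kingkong libraries (replicates 1, 2 and 3). In Red beauty it stood at 1.01, 0.763 and 4.43 CPM, and in Longshu No.7 at 1.14, 1.03 and 4.55 CPM. The LK99 libraries had 141, 165 and 261 CPM. The libraries of Black kingkong and LK99 did not overlap those of the other cultivars, and Black kingkong lay above LK99 without overlap. Among all entries of the table, miR858-x ranked 47 by count in each Black kingkong library and 45 to 73 in LK99, but 463 to 1738 in Red beauty and 413 to 1340 in Longshu No.7.

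The second entry, miR858-y, was high and low in the same cultivars. Black kingkong had 199, 197 and 240 CPM of it, Red beauty 1.01, 0.572 and 4.06, Longshu No.7 1.01, 0.690 and 3.90, and LK99 186, 110 and 118. Again the high and the low cultivars did not overlap, and the Red beauty and Longshu No.7 libraries lay among each other. The rare start variant miR858-z had 23, 25 and 11 counts in Black kingkong libraries, 0, 0 and 1 in Red beauty, 0 in each library of Longshu No.7, and 6, 7 and 7 in LK99. A count of 0 over the 3 libraries of Longshu No.7 allows a level of up to 0.164 CPM, an allowance that covers counting error only, since PCR copies are not independent molecules.

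In Red beauty and in Longshu No.7, replicate 3 held most of the few miR858 counts. It contributed 47 of 66 counts (71.2%) in Red beauty and 39 of 66 (59.1%) in Longshu No.7. Being highest in replicate 3 was not particular to the low cultivars. In Black kingkong miR858-x had 501 CPM there, against 361 and 368 in replicates 1 and 2. In LK99 it had 261 CPM there, against 141 and 165. Replicate 3 held a smaller part of the miR858 counts in these high cultivars, 35.1% and 38.7%. With miR858-y, LK99 was highest in replicate 1, at 186 CPM. The cause was not tested. For miR828-x the highest library in Red beauty was replicate 1, with 15 of 33 counts, and in Longshu No.7 replicate 3, with 5 of 12 counts. The low levels of miR858-x in Red beauty and Longshu No.7, and the fold changes drawn from them, therefore rest on few counts.

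The entry miR828-x was far less abundant than miR858-x and was spread over a narrower range. Black kingkong libraries had 6.62, 8.52 and 7.36 CPM, Red beauty 2.52, 1.91 and 1.48, Longshu No.7 0.506, 0.517 and 1.08, and LK99 8.58, 4.37 and 7.42. LK99 and Black kingkong overlapped, Red beauty lay below both, and Longshu No.7 lay lowest with no overlap with Red beauty. The counts behind the Longshu No.7 values were 4, 3 and 5. In the 3 libraries of each cultivar there were 43.2 to 68.0 counts of miR858-x per count of miR828-x for Black kingkong tubers, 0.4 to 3.0 for Red beauty, 2.0 to 4.2 for Longshu No.7 and 16.5 to 37.9 for LK99. In replicates 1 and 2 of Red beauty miR828-x thus had more counts than miR858-x.

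The study set out to find miRNAs tied to anthocyanin synthesis, per its title, and the cultivars were compared pair by pair. All comparisons that follow come from 1 edgeR quasi-likelihood fit over the 12 libraries, with p-values adjusted by Benjamini-Hochberg over 1349 entries and a threshold of 0.05. Log2 fold changes (log2 FC) are those of the first-named cultivar over the second. The comparisons share libraries, so they are not independent of each other. In the test for any difference among the 4 cultivars, 4 of 4 tested members passed, against 58.9% of all tested entries. Their adjusted p-values were 1.5e-06 for miR858-x, 2.8e-06 for miR858-y, 7.7e-05 for miR828-x and 0.00014 for miR858-z.

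Black kingkong had more of every tested member than Red beauty. All 4 passed as higher. Of all tested entries 42.1% passed, 20.3% as higher and 21.8% as lower. The log2 FC was 7.62 (SE 0.72, adjusted p = 4.4e-06) for miR858-x and 6.81 (SE 0.71, adjusted p = 1.0e-05) for miR858-y. Without Red beauty replicate 3 these values were 8.89 and 8.09. For miR828-x the log2 FC was 1.92 (SE 0.39, adjusted p = 0.0015). The 59 counts of miR858-z in Black kingkong against 1 in Red beauty, in replicate 3, gave a ratio of 48.9, with a 95% counting interval (exact binomial) of 8.45 to 1965 and an adjusted p = 0.00041 by edgeR.

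Black kingkong also had more of every tested member than Longshu No.7, with 4 of 4 passing as higher. Of all tested entries 34.3% passed, 14.7% as higher and 19.6% as lower. The log2 FC was 7.57 (SE 0.72, adjusted p = 4.3e-06) for miR858-x and 6.89 (SE 0.72, adjusted p = 1.0e-05) for miR858-y, or 8.51 and 7.89 without Longshu No.7 replicate 3. For miR828-x it was 3.44 (SE 0.44, adjusted p = 7.8e-05), or 3.81 without that library. Against the floor of 3 counts over the Longshu No.7 libraries, miR858-z was at least 18.0-fold higher in Black kingkong (adjusted p = 0.00028 by edgeR).

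**Figure D2:**
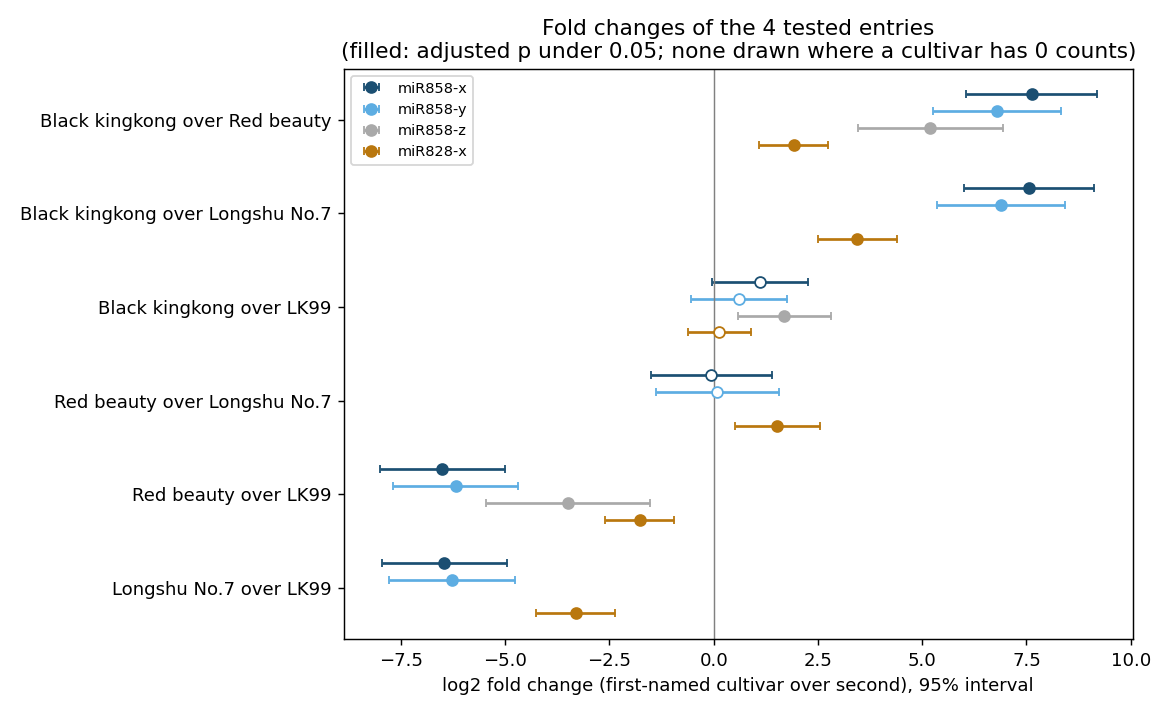
Log2 fold change of the 4 tested entries in the 6 pairs of cultivars, first-named over second, with 95% intervals from the edgeR fit; filled points passed an adjusted p of 0.05, and miR858-z is left out where Longshu No.7 has 0 counts. The miR858-x and miR858-y points lie beyond 6 in size in the 4 pairs that set Black kingkong or LK99 against Red beauty or Longshu No.7, and their intervals include 0 in the other pairs.

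Red beauty had less of every tested member than LK99: 4 of 4 passed as lower. Of all tested entries 33.5% passed, 14.3% as higher and 19.2% as lower. Higher calls were thus 42.7% of the calls here, and 22.6% with library size alone in place of TMM scaling. For miR858-x the log2 FC was -6.51 (SE 0.69, adjusted p = 2.1e-05), and miR858-y had -6.19 (SE 0.70, adjusted p = 3.1e-05). Without Red beauty replicate 3 the values were -7.78 and -7.49. The entry miR828-x had a log2 FC of -1.78 (SE 0.39, adjusted p = 0.0032). With 1 count against 20, miR858-z was 14.6-fold lower in Red beauty, with a counting interval of 2.33 to 604 (adjusted p = 0.011 by edgeR).

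Longshu No.7 likewise had less of every tested member than LK99, with 4 of 4 passing as lower. Among all tested entries 18.3% passed, 8.23% as higher and 10.1% as lower (44.9% of calls higher, and 29.5% with library size alone). Its log2 FC was -6.27 for miR858-y (SE 0.70, adjusted p = 4.4e-05), which became -7.31 without Longshu No.7 replicate 3. The corresponding value for miR858-x was -6.46 (SE 0.69, adjusted p = 3.2e-05), or -7.42 without that library. The entry miR828-x had -3.30 (SE 0.44, adjusted p = 0.00017), and -3.71 to -3.09 with 1 library left out. Against the floor of 3 counts over the Longshu No.7 libraries, miR858-z was at least 5.35-fold lower in Longshu No.7 than in LK99 (adjusted p = 0.0051 by edgeR).

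The high cultivars differed less. Of the 4 members 1 was higher in Black kingkong than in LK99, while among all tested entries 31.2% passed, 12.5% as higher and 18.8% as lower (39.9% of calls higher, and 24.9% with library size alone). This was miR858-z, at 2.89 ± 0.914 CPM in Black kingkong and 0.885 ± 0.149 CPM in LK99 (SD, n = 3 each). Its log2 FC was 1.70 (SE 0.50, adjusted p = 0.026 by edgeR). It had passed the filter on low counts through its Black kingkong libraries only, so this call is not independent of the filter. Its call was lost under 10 of the alternatives, among them leaving out Black kingkong replicate 1 or 2 or any 1 LK99 library (adjusted p = 0.067 to 0.17). The 95% interval of the log2 FC was -0.03 to 2.26 for miR858-x, -0.53 to 1.77 for miR858-y and -0.62 to 0.90 for miR828-x, so a difference of about the size seen for miR858-z is not outside the intervals of the other miR858 entries. For miR858-x (log2 FC 1.12, adjusted p = 0.13) the call was gained in 5 alternatives, one of them without Longshu No.7 replicate 3 (adjusted p = 0.029; range over all alternatives 0.0054 to 0.80). With the replicate number of the labels as a block its log2 FC was 1.17 and its adjusted p = 0.024.

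Red beauty and Longshu No.7, the low cultivars, differed in miR828-x and in no miR858 entry by this test. The level of miR828-x was 1.97 ± 0.523 CPM in Red beauty and 0.702 ± 0.330 CPM in Longshu No.7 (SD, n = 3 each; log2 FC 1.53, SE 0.47, adjusted p = 0.031 by edgeR). It was the 1 of 4 members past the threshold, while among all tested entries 24% passed, 10.3% as higher in Red beauty and 13.7% as lower. The call was lost without Red beauty replicate 1 or 2 and without Longshu No.7 replicate 1 or 2 (adjusted p = 0.071 to 0.14). The 95% intervals of -1.50 to 1.40 for miR858-x and -1.39 to 1.56 for miR858-y leave room for a difference of more than 2-fold either way. Leaving out Red beauty replicate 3 gave log2 FCs of -1.28 and -1.16, and leaving out Longshu No.7 replicate 3 gave 0.90 and 1.09, none past the threshold. With 1 count against 0, no ratio can be given for miR858-z.

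By mean level of miR858-x, Black kingkong came first and LK99 next, and these neighbours did not differ past the threshold. Longshu No.7 and Red beauty came last with overlapping libraries, and which of them was higher depended on whether replicate 3 of Red beauty or of Longshu No.7 was left out. For miR828-x it was Black kingkong, LK99, Red beauty, Longshu No.7, where the first neighbours did not differ past the threshold and the others did. The order of Black kingkong and LK99 was reversed with library size alone. The miR828-x call of Red beauty over Longshu No.7 was lost under 7 of the alternatives.

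Of the cultivars, 2 are named for a colour, and the labels give no pigment values. Setting the mean log2 level of Black kingkong with Red beauty over that of Longshu No.7 with LK99 joined a high and a low cultivar on each side, and it passed the threshold for miR828-x only (log2 FC 0.83, SE 0.29, adjusted p = 0.048), 1 of 4 members. Of all tested entries 28.6% passed, 10.6% as higher and 18% as lower (37.0% of calls higher, and 21.5% with library size alone). The call was lost without any 1 library of Black kingkong or Red beauty, without Longshu No.7 replicate 1 or 2 and without LK99 replicate 2 or 3 (adjusted p = 0.055 to 0.14). For miR858-x (0.53, adjusted p = 0.37), miR858-y (0.35, adjusted p = 0.59) and miR858-z (1.87, adjusted p = 0.17) it was not passed, although miR858-x had an adjusted p = 0.047 without Longshu No.7 replicate 3.

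The make-up of the miR858 pool varied as well. The share of miR858-x among miR858 counts was 64.1%, 64.7% and 67.5% in the Black kingkong libraries. It was 50%, 57.1% and 51.1% in Red beauty and 52.9%, 60.0% and 53.8% in Longshu No.7. The LK99 libraries spread most, at 43.0%, 59.8% and 68.8%. The intervals are narrow in Black kingkong and LK99, for example 41.1% to 44.9% in LK99 replicate 1, and wide in the low cultivars, for example 36.1% to 65.9% in Red beauty replicate 3.

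**Figure D3:**
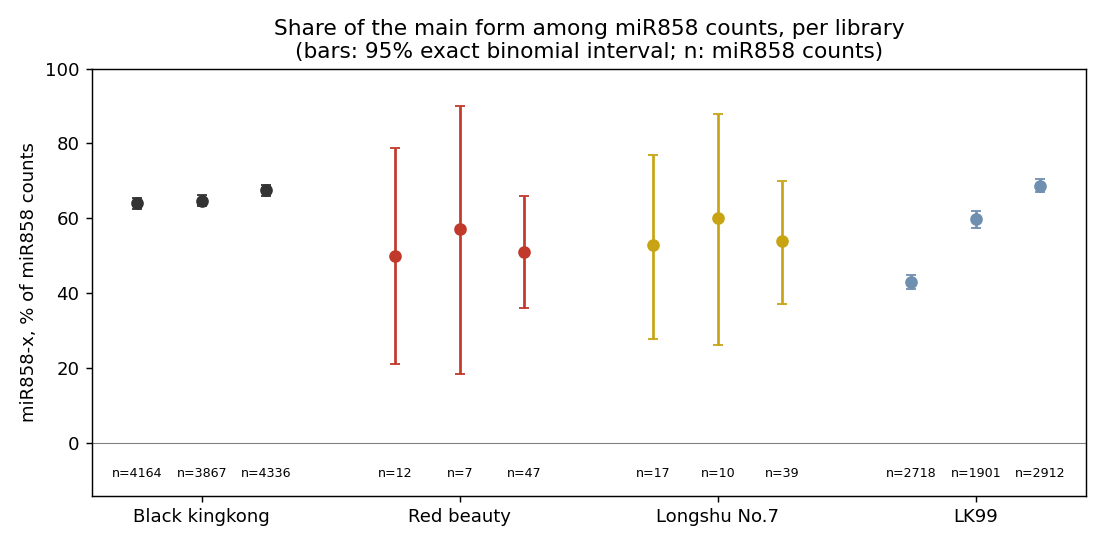
Percent of miR858 counts that belong to miR858-x in each library, with 95% exact binomial intervals that cover counting error only; the number under each point is the count of the 3 miR858 entries together. LK99 replicate 1, at 43.0%, lies below the other LK99 libraries, and Black kingkong lies between 64.1% and 67.5%.

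In LK99 replicate 1 the entry miR858-y had more counts than miR858-x (1543 against 1169), the reverse of the other LK99 libraries. The share of miR858-x averaged 65.4% ± 1.79 in Black kingkong and 52.7% ± 3.85 in Red beauty (SD, n = 3 each), the largest difference among the 6 pairs. Its exact permutation test gave p = 0.10 (two-sided, 0.30 adjusted over 6 pairs), the smallest p that 3 libraries against 3 allow, so no pair could have passed 0.05. The same p = 0.10 (exact permutation test) was found for Black kingkong over Longshu No.7, and the remaining pairs had exact p-values of 0.40 to 1. With the 3 libraries pooled, the start variant miR858-z made up 0.477% of miR858 counts in Black kingkong (95% interval 0.363 to 0.615) and 0.266% in LK99 (0.162 to 0.410). These intervals cover counting error only. By library the shares overlapped, at 0.552%, 0.646% and 0.254% in Black kingkong and 0.221%, 0.368% and 0.240% in LK99.

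Few other entries carried the seed of a member, and none passed the filter on low counts. The seed of miR858-x was found in 1 other entry, that of miR858-y in 3 and that of miR828-x in 1, all predicted by the authors and with 14 to 21 counts over the 12 libraries. The seeds of miR858-z and miR828-y were found in no other entry.

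The entries most like miR858-x and miR828-x were taken by Pearson's r of log2 CPM over the 12 libraries, as a description with no test. The 12 libraries come from 4 cultivars, so entries with the same order of cultivars have a high r. Next to miR858-y (r = 0.994), the entries most like miR858-x were stu-miR8006-5p (0.985), predicted miRNA A (0.978), stu-miR530 (0.977) and predicted miRNA B (0.971), whose sequence is listed under 1 other name as well. For miR828-x they were stu-miR393-5p (0.939), which targets auxin receptor genes in other plants, predicted miRNA C (0.933), stu-miR530 (0.932), predicted miRNA D (0.911) and stu-miR8006-5p (0.908). Between miR858-x and miR828-x r was 0.894. The predicted miRNAs are given by their sequence, with bases 2 to 8 in capitals, because they have no family name.
predicted miRNA A: aACTTTTCcaggatttgaccc
predicted miRNA B: aATTACATggagatttttctg
predicted miRNA C: tTGAGAGCcaaagaacccatt
predicted miRNA D: cATCATCCtcgtaccttcatc

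Predicted miRNA A was the most abundant of these. It stood at 974 ± 40.5 CPM for Black kingkong tubers, 3.95 ± 4.27 for Red beauty, 1.74 ± 0.534 for Longshu No.7 and 769 ± 376 for LK99 (SD, n = 3). Unlike miR858-x it was not raised in Longshu No.7 replicate 3, where it had 1.73 CPM against 2.28 and 1.21 in replicates 1 and 2. In Red beauty it was highest in replicate 3, at 8.48 CPM against 3.36 and 0. The level of stu-miR530 was 598 ± 32.4 CPM for Black kingkong tubers, 14.3 ± 3.6 for Red beauty, 10.7 ± 4.52 for Longshu No.7 and 806 ± 328 for LK99, so that here LK99 had the highest mean. The entry most like miR828-x, stu-miR393-5p, stood at 23.6 ± 4.49 CPM for Black kingkong tubers, 11.1 ± 1.80 for Red beauty, 8.91 ± 4.70 for Longshu No.7 and 20.6 ± 4.42 for LK99. Its Red beauty libraries (9.04 to 12.4 CPM) lay within the Longshu No.7 range (5.69 to 14.3 CPM), unlike those of miR828-x. That overlap came from Longshu No.7 replicate 3 only, at 14.3 CPM. Replicates 1 and 2, at 5.69 and 6.73 CPM, lay below every Red beauty library.

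**Figure D4:**
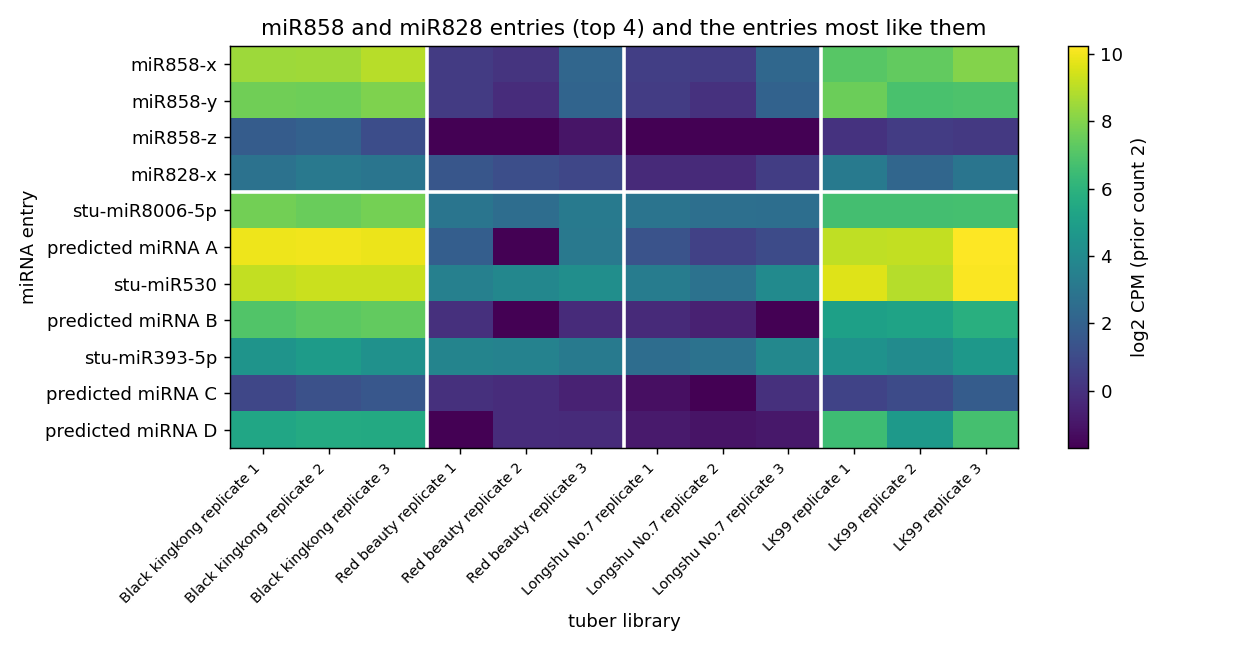
Log2 CPM of the 4 tested miR858 and miR828 entries (top rows) and of the 7 other entries most like miR858-x or miR828-x, by library; white lines part the cultivars, and brighter cells are higher. The 3 Black kingkong and 3 LK99 columns are brighter than the columns between them in most rows, least so for stu-miR393-5p.

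Other miRNA families act on regulators of anthocyanin or MYB pathways in other plants. A list of miR156 and miR157, which target SPL factors, miR159, which targets GAMYB factors, and miR319, which targets TCP factors, held 32 entries, of which 23 passed the filter, with 15 distinct sequences. Of the 23 entries several share a sequence, so counts are given first by distinct sequence, of 15. For Black kingkong over Red beauty 5 were higher and 4 lower (5 and 9 of the 23 entries, where 42.1% of all tested entries passed). For Black kingkong over Longshu No.7 1 was higher and 2 lower (1 and 2 entries, against 34.3% of all tested entries), and for Black kingkong over LK99 4 and 5 (4 and 8 entries, against 31.2%). Between Red beauty and Longshu No.7, 2 were higher and 4 lower in Red beauty (7 and 4 entries, against 24%). For Red beauty over LK99 there were 5 higher and 3 lower (10 and 6 entries, against 33.5%), and for Longshu No.7 over LK99 3 and 1 (3 and 4 entries, against 18.3%). With library size alone the entries numbered 9 higher and 10 lower for Red beauty over LK99 and 3 and 8 for Longshu No.7 over LK99. The median log2 FC of the list was taken over the 23 entries, so repeated sequences weigh more. It was -0.34 for Black kingkong over Red beauty, where that of all tested entries was 0, and 0.22 for Black kingkong over LK99 (all tested -0.06). For Black kingkong over Longshu No.7 it was -0.29 (all tested -0.14), and for Red beauty over Longshu No.7 0.05 (-0.06). Red beauty over LK99 had 0.018 (0.00013) and Longshu No.7 over LK99 0.09 (0.02).

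By level, the most abundant tested entry of each of these families ordered the cultivars in its own way. It need not stand for its family, since 15 miR156 and 6 miR319 entries were tested. The entry stu-miR156d-5p stood at 1191 ± 55.9 CPM for Black kingkong tubers, 1507 ± 317 for Red beauty, 1455 ± 223 for Longshu No.7 and 3020 ± 1265 for LK99 (SD, n = 3). The entry miR157-x was low throughout and highest in LK99, at 1.91 ± 0.306, 2.30 ± 1.08, 2.23 ± 0.696 and 4.77 ± 1.66 CPM in the same order. For miR159-y the levels were 2861 ± 54.5 CPM for Black kingkong tubers, 1269 ± 72.4 for Red beauty, 2045 ± 711 for Longshu No.7 and 2379 ± 535 for LK99, and Black kingkong over Red beauty passed the test (log2 FC 1.17, SE 0.25, adjusted p = 0.0021). The entry stu-miR319a-3p was lowest in LK99, at 1393 ± 493 CPM, against 5566 ± 601 in Black kingkong.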

How the data were processed

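Small RNA libraries of 18 to 30 nt were sequenced on an Illumina HiSeq, per the labels' protocols. The authors deposited 1 table with raw counts per mature miRNA entry and library, the sequence and its length in nt, per the file headers. The deposited table also holds a per-million score made by the authors, headed TPM. These scores are the counts divided by 1 number per library, with zeros written as 0.01. For Black kingkong replicate 1 that number is 11.9 times the library total, so the scores entered an alternative only. Neither the labels nor the file headers name the aligner, the counter or the reference release, or say what the endings x, y and z mean.

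Counts were tested with edgeR 4.0.16 in R 4.3.3 (quasi-likelihood F-test, TMM scaling, 1 coefficient per cultivar, 12 libraries). Entries needed a count of about 10 in a cultivar's number of libraries and 15 in total (filterByExpr), which kept 1349 of 7827. P-values were adjusted by Benjamini-Hochberg. Levels are TMM-scaled CPM, and r used log2 CPM with a prior count of 2. Floors are 3 counts over a cultivar, and intervals (95%, Clopper-Pearson) cover counting error only. Members, lists and tests were chosen with earlier results of these data known. Named entries are the members, for miR858-x and miR828-x the 5 entries with the highest r, the most abundant tested entry each of miR156, miR157, miR159 and miR319, and the most abundant entry of the table. Alternatives used DESeq2 1.42.0, limma 3.58.1 (pseudocount 1), other scalings and filters, and left out libraries. Scripts were tested on simulated data.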

Additional observations from a re-analysis of the deposited data

How the results depend on the processing

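In the comparisons of Black kingkong or LK99 with Red beauty or Longshu No.7, miR858-x and miR858-y passed the threshold in 200 of 200 values, with log2 sizes of 5.26 to 8.89. Of 728 values of single entries under the alternatives, 661 kept direction and side of the threshold, 39 lost the call, 6 gained it and 22 changed sign. The cause of these changes was not tested. A minimum of 10 CPM in 3 libraries left 2 members tested: 2 passed in the test for any difference and in each of those comparisons, and 0 in the others. By limma on the authors' per-million scores, 2 members passed in Black kingkong over Red beauty, 2 in Black kingkong over Longshu No.7 and 0 in Black kingkong over LK99, in Red beauty over Longshu No.7 and in the mean of Black kingkong with Red beauty over that of Longshu No.7 and LK99. It also lost miR858-z in Red beauty over LK99 (adjusted p = 0.14) and in Longshu No.7 over LK99 (adjusted p = 0.16). Black kingkong over LK99, Red beauty over Longshu No.7 and that mean gave 0 also without Black kingkong replicate 1, an alternative added after seeing the data. For Black kingkong over LK99, 0 members passed with library size alone, without miR166-y in the library size or by DESeq2. Without miR166-y only 3 members were tested, since miR858-z fell below the filter. For the same pair 2 passed with only the cultivars compared or with the replicate block, and 0 to 2 with 1 library left out. With replicate 3 of both Red beauty and Longshu No.7 left out, also added after seeing the data, 2 passed for that pair. For Red beauty over Longshu No.7, 0 passed with no filter and 0 to 1 with 1 library left out. With only these cultivars no member passed the filter. For that mean, 0 passed with no filter, library size alone, without miR166-y, by DESeq2 or with the replicate block, and 0 to 2 with 1 library left out.

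The values that changed sign follow. Of them only miR828-x for the mean had passed the threshold in the fit used for the comparisons above. For Black kingkong over LK99, miR828-x had -0.22 with library size alone, -0.89 by limma, -0.12 by limma without Black kingkong replicate 1 and -0.20 to 0.39 with 1 library left out, and by limma miR858-x had -0.33 and miR858-y -0.82. For Red beauty over Longshu No.7, miR858-x had 0.046 under the 10 CPM minimum and -1.28 to 0.90 with 1 library left out. There miR858-y had -0.029 with library size alone, -0.0013 by limma with and without Black kingkong replicate 1, -0.15 without replicate 3 of both cultivars and -1.16 to 1.09 with 1 library left out. For that mean, limma gave -0.21 for miR858-x, -0.41 for miR858-y and -0.073 for miR828-x, and leaving out 1 library gave -0.085 to 1.00 for miR858-x and -0.28 to 0.83 for miR858-y.

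Same-numbered libraries of different cultivars deviated together with r of -0.072 to 0.147 over 18 pairs (median 0.032). For different numbers r was -0.120 to 0.076 over 36 pairs (median -0.012). The ranges overlap, so the numbers were not taken to pair the libraries, and the replicate block is a check only. These r cover all tested entries and do not settle pairing for miR858-x, which was highest in replicate 3 of every cultivar. Over all entries, calls for any difference numbered 794, against 1903 with no filter, 236 under the 10 CPM minimum and 455 by limma. Over the pairs and that mean, where 247 to 568 were called, no filter gave 501 to 1087 and the 10 CPM minimum 83 to 183. By limma there were 269, 160, 139, 263, 137 and 239 calls for Black kingkong over Red beauty and over Longshu No.7, Red beauty over Longshu No.7 and over LK99, Longshu No.7 over LK99 and that mean. Without Longshu No.7 replicate 3 there were 680 for Red beauty over LK99 (452 with it) and 381 for Longshu No.7 over LK99 (247 with it), where only the cultivars compared gave 111. That mean gave 255 with 1 entry per sequence (386 otherwise). Library size alone moved the median log2 FC by 0.17 to -0.51. Depth limits the low cultivars, where miR858 rests on 66 counts each.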
